A study of Mus musculus with 6 samples.

Results

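The genes described here are 9 genes of osteoblasts, the cells that lay down bone, and of osteocytes, the cells that osteoblasts become once they are buried in it: Runx2, Sp7, Alpl, Bglap, Bglap2, Phex, Ifitm5, Smpd3 and Sost. They were chosen by symbol, with collagens and the SIBLING matrix genes left out, and all 9 were found among the 22032 genes of the deposited count table. The table comes from RNA sequencing of mouse temporomandibular joint tissue, the joint of the jaw. It holds 3 libraries labelled Igf2bp2-KO, from mice lacking the RNA-binding protein IGF2BP2, and 3 labelled Igf2bp2-WT, from wild-type littermates. All mice were 10 weeks old. The series title ties IGF2BP2 to loss of the bone under the joint cartilage, so the comparison of KO with WT bears on the bone cells of this tissue. The strain, the sex, the deleted part of Igf2bp2 and whether a library came from 1 mouse or from several are not stated in the labels. The genotype is written as Igf2bp2-/- with no cell type named, so the loss is not described as limited to bone cells.

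RUNX2 is the transcription factor that commits precursor cells to the osteoblast lineage, and SP7 (osterix) acts after it. Committed cells make alkaline phosphatase, the product of Alpl, which frees phosphate for mineral. Mature osteoblasts secrete osteocalcin, a small protein of the mineral phase that mice carry in several gene copies, among them Bglap and Bglap2. Osteocytes make PHEX, a membrane protein that keeps phosphate loss in check, and sclerostin, the product of Sost, which inhibits WNT signalling and thereby bone formation.

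Total counts ranged from 31813171 to 35094127 in KO and from 28551236 to 33935022 in WT. Mitochondrial transcripts took 85.3% to 86.0% of them in KO and 90.6% to 90.8% in WT, which left 4604575 to 4899680 counts on nuclear genes in KO and 2625472 to 3205190 in WT. Levels are given as CPM, counts scaled to library size, adjusted by the trimmed mean of M-values (TMM), a step that sets the bulk of genes equal between libraries. Within each group 1 pair of libraries, KO 1 with KO 3 and WT 2 with WT 3, agreed within counting noise over most genes: the median ratio of observed to counting variance was 0.941 and 0.964 in these, against 1.31 to 1.63 in the other pairs. Each such pair was summed and counted as 1 sample, so n = 2 samples per group. Counts of Igf2bp2 itself were 10 to 14 per KO library, against 20 to 38 per WT library (log2 fold change -1.80, SE 0.39, FDR 0.00589, edgeR's quasi-likelihood test).

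The promoters of Runx2 and Bglap are shown because these 2 genes, a regulator and its textbook target, had opposite changes. Each window runs from 250 bases before the gene's start to 50 after it, 5′ to 3′ on the gene's strand, taken from RefSeq on the build GRCm38.p6 and not on the build of the counts. The Runx2 window is chr17:44814578-44814877 and the Bglap window chr3:88384417-88384716, both on the minus strand. Capitals mark the core letters bound by RUNX proteins, searched as TGTGGT and, on the other strand, ACCACA.
Runx2: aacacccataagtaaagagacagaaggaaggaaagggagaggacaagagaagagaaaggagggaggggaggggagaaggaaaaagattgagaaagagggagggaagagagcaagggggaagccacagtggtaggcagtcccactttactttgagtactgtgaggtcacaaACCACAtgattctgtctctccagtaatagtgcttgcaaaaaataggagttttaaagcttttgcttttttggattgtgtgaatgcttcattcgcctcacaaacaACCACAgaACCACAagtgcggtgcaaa
Bglap: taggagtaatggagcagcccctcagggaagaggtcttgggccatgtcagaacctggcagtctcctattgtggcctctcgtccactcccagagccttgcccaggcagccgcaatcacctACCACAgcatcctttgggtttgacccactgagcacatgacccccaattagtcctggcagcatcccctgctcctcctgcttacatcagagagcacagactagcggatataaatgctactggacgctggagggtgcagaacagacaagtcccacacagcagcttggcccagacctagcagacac
The Runx2 window held 3 matches, all as ACCACA, which began 80 bases before the start and 23 and 31 bases after the start base. The Bglap window held 1 match, which began 132 bases before the start. It also held a TATAAA that began 27 bases before the start. Windows were found for 6 of the 9 genes, 7 windows in all because Alpl has 2. The 2 Alpl windows and those of Phex, Ifitm5 and Sost had no match to the RUNX letters. Of all 32851 promoter windows of this length in the table, 16.8% held the RUNX letters on either strand and 13.6% held TATAAA or its reverse TTTATA. These matches describe letters in a window and were not tested for binding.

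Of the 9 genes, Phex, Bglap and Bglap2 rose in KO, Runx2 fell, and Sp7, Alpl, Ifitm5, Smpd3 and Sost did not pass the test. All 9 passed the filter on low counts. Over all 14632 genes tested, 17.6% were called at a false discovery rate (FDR) under 0.05, 9.15% higher and 8.48% lower in KO. The 4 calls make 44.4% of the 9, but Bglap and Bglap2 are near-identical copies that may share reads and do not count as separate observations. The median log2 fold change was -0.06 over the 9 genes and -0.01 over all genes tested. In bulk tissue, fewer cells of a type and less RNA per cell cannot be told apart, so none of these changes can be placed in a cell. Since no label names separate animals, the tests measure the spread between these samples alone, and that spread may be technical.

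**Figure D1:**
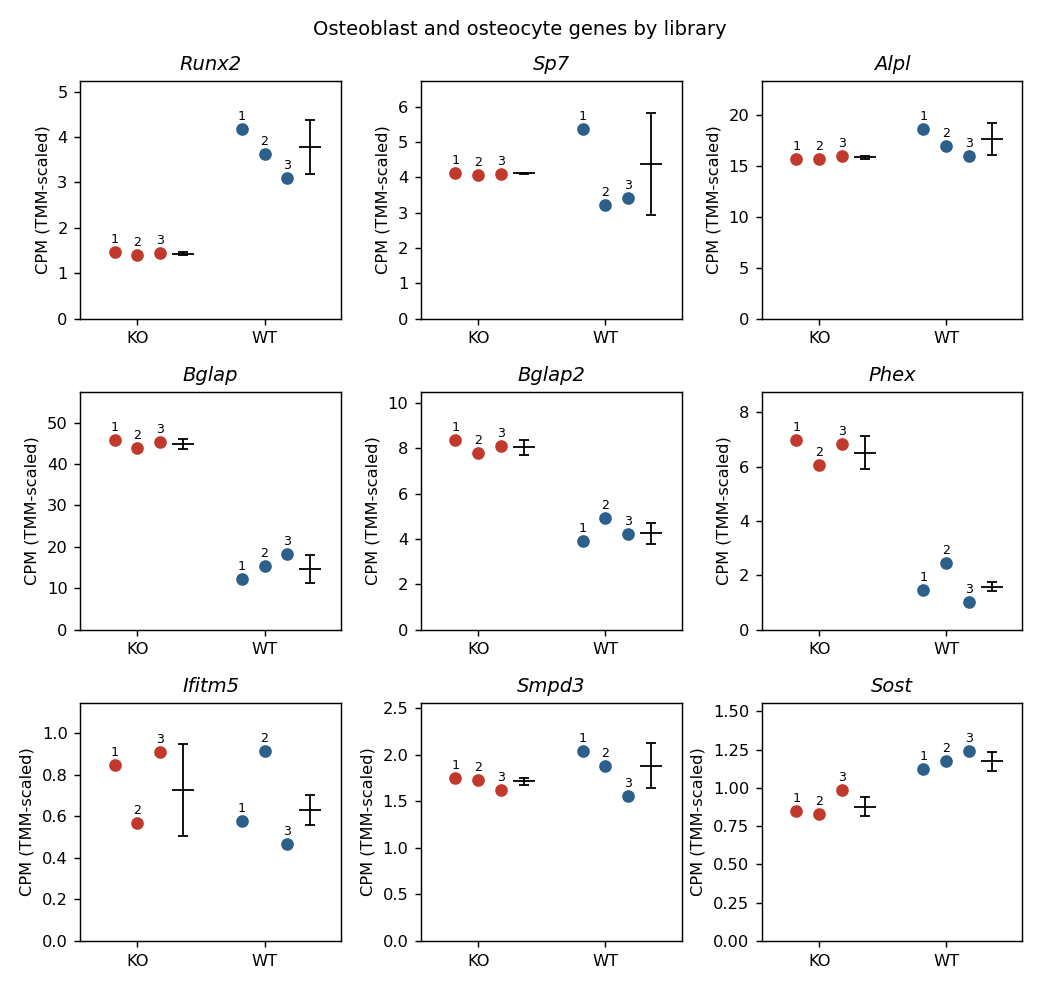
TMM-scaled CPM of each of the 9 genes, with 1 point per library, numbered as in the labels, and beside each group a bar for the mean ± SD over its 2 samples; every vertical axis starts at 0. KO points lie apart from WT points for Runx2, Bglap, Bglap2, Phex and Sost, and overlap them for Sp7, Alpl, Ifitm5 and Smpd3.

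Runx2 was the member that fell. Its level was 1.46, 1.40 and 1.44 CPM in KO 1 to 3, against 4.19, 3.62 and 3.11 CPM in WT 1 to 3. The KO libraries were close to each other and all below the WT libraries. Means were 1.43 ± 0.0388 CPM in KO, against 3.79 ± 0.595 CPM in WT (SD, n = 2 samples each), a 2.61-fold lower level in KO (log2 fold change -1.39, SE 0.20, edgeR FDR 0.000318). The raw counts were 57, 59 and 57 in KO and 123, 83 and 80 in WT, so Runx2 was also lower in KO before any scaling, although the KO libraries held more nuclear counts. Supt3, a gene that lies across the Runx2 locus on the opposite strand, had 297 counts over the 6 libraries, and reads of such partners cannot be separated without the strand setting, which no source states.

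Sp7, the factor that acts downstream of RUNX2, had 4.11, 4.08 and 4.10 CPM in KO 1 to 3, against 5.38, 3.23 and 3.42 CPM in WT 1 to 3. The KO values fall between WT 1, which was high, and the other WT libraries. The log2 fold change was -0.06 (95% interval -0.52 to 0.40, FDR 0.886), and it was 0.31 without WT 1, with 1 summed sample left in WT (FDR 0.298). The interval does not include a fall as large as that fitted for Runx2, but the difference between the changes of these genes was not tested.

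On the CPM scale Alpl was below only Bglap among the 9 in KO. In WT the mean of Alpl was above that of Bglap, at 17.6 and 14.6 CPM, but the 2 WT samples differ in this order. In WT 1 Alpl had 18.7 CPM and Bglap 12.3 CPM, while in WT 2 and WT 3 summed Alpl had 16.5 CPM and Bglap 17.0 CPM. Alpl had 15.6, 15.6 and 16.0 CPM in KO and 18.6, 16.9 and 15.9 CPM in WT. The groups overlap only at KO 3 and WT 3. The log2 fold change was -0.15 (95% interval -0.40 to 0.09, FDR 0.411), the narrowest interval of the 9.

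Bglap, the main osteocalcin gene, had 45.9, 43.8 and 45.2 CPM in KO 1 to 3, against 12.2, 15.4 and 18.2 CPM in WT 1 to 3. Every KO library was above every WT library, with a wide gap between the groups. Means were 44.9 ± 1.23 CPM in KO, against 14.6 ± 3.34 CPM in WT (log2 fold change 1.61, SE 0.15, FDR 1.26e-05). Bglap2 had 8.38, 7.77 and 8.12 CPM in KO and 3.92, 4.93 and 4.23 CPM in WT, again with no overlap. Its change was smaller, 1.88-fold (log2 fold change 0.91, SE 0.15, FDR 0.000671).

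Bglap3, another copy beside them on chromosome 3 that is not among the 9, had 12.5 ± 0.319 CPM in KO and 5.74 ± 0.909 CPM in WT (log2 fold change 1.11, SE 0.14, FDR 8.23e-05). The longest annotated transcripts of Bglap and Bglap2, 440 and 471 bases long, were identical at 99.1% of aligned bases, and 74.7% of the 50-base windows of Bglap also occur in Bglap2. Bglap shared 20.5% of its windows with Bglap3. A read from such a window has no unique copy, and no source states how the authors counted it. Reads divided between the copies stay together in a sum, but reads that were dropped or counted more than once would not be put right by it, and Bglap2 shares 37.9% of its windows with Bglap3. Bglap and Bglap2 together had 52.9 ± 1.56 CPM in KO and 18.9 ± 3.80 CPM in WT (log2 fold change 1.48, SE 0.14, FDR 9.91e-06). With Bglap3 added the change was 1.40 (SE 0.14, FDR 1.28e-05).

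The division of counts among the copies was not the same in every library. Bglap took 69.3%, 68.7% and 67.9% of the summed counts of the 3 copies in KO 1 to 3, against 57.6%, 57.3% and 63.7% in WT 1 to 3. The share of Bglap2 was 12.2% to 12.7% in KO and 14.8% to 18.5% in WT, and that of Bglap3 was 18.1% to 19.9% in KO and 21.5% to 24.4% in WT. The groups do not overlap in any of the 3 shares, but the shares are parts of the same sum and are not separate observations. This difference was not tested, and the summed counts behind it were 2577 to 2691 in KO and 618 to 736 in WT.

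**Figure D2:**
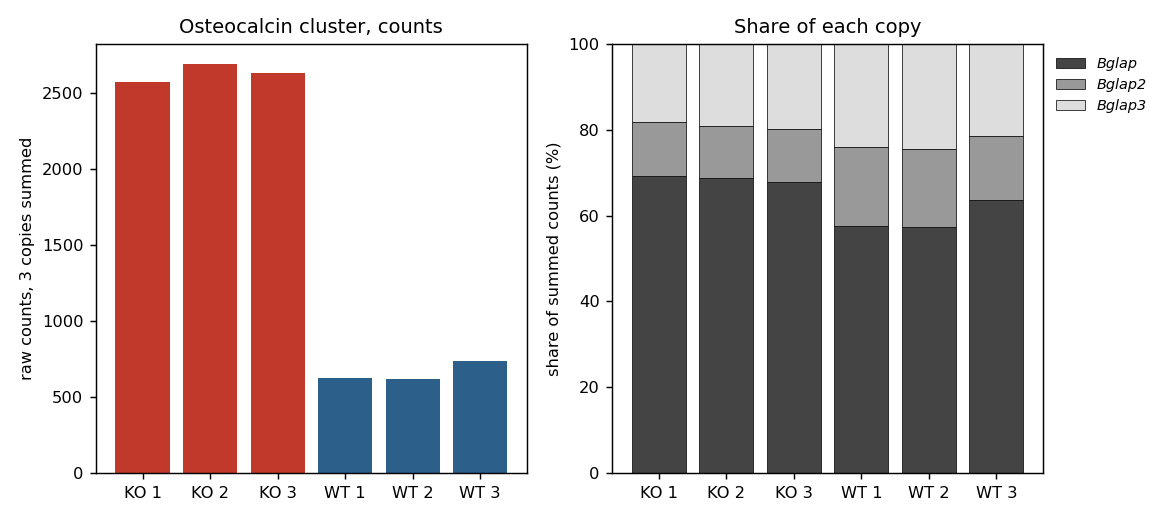
Left, raw counts of Bglap, Bglap2 and Bglap3 summed, by library; right, the share of each copy in that sum, in percent. The KO libraries hold 2577 to 2691 counts and the WT libraries 618 to 736, and the Bglap share is 67.9% or more in every KO library and 63.7% or less in every WT library.

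Phex had the largest change of the 9. It had 6.99, 6.07 and 6.83 CPM in KO 1 to 3, against 1.46, 2.44 and 1.01 CPM in WT 1 to 3, so the lowest KO library was above the highest WT library. Means were 6.52 ± 0.597 CPM in KO, against 1.58 ± 0.158 CPM in WT, 4.09-fold higher in KO (log2 fold change 2.03, SE 0.18, FDR 4.8e-06). The small SD of WT hides a gap inside the summed pair: WT 2 had 56 counts and WT 3 had 26, a variance 7.52 times that of counting noise, past the 95% limit of 3.84. Phex was the only member past that limit in either summed pair. The limit holds for a single check, and all 9 genes were checked in both pairs. The cause of the gap between WT 2 and WT 3 was not tested. The log2 fold change was 2.38 without WT 2 and 1.76 without WT 3 (FDR 1.15e-05 and 0.000128).

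Ifitm5, which encodes a membrane protein largely restricted to osteoblasts, had the lowest mean CPM of the 9 in both groups, before any division by transcript length. Its counts were 33, 24 and 36 in KO and 17, 21 and 12 in WT. Scaled, these were 0.848, 0.569 and 0.910 CPM in KO 1 to 3 and 0.579, 0.916 and 0.466 CPM in WT 1 to 3, and the KO range lies inside the WT range. The log2 fold change was 0.22 (95% interval -0.58 to 1.03, FDR 0.753). No difference was detectable at this depth, and the interval is the widest of the 9.

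Smpd3, which encodes a neutral sphingomyelinase needed for bone mineralisation in mice, had 1.75, 1.73 and 1.62 CPM in KO and 2.04, 1.88 and 1.55 CPM in WT. The KO values lie inside the WT range (log2 fold change -0.12, 95% interval -0.61 to 0.36, FDR 0.771). Prmt7 lies on the opposite strand across the Smpd3 locus and had 566 counts over the 6 libraries. Neurons also express Smpd3, and 6 of 7 neuronal marker genes rose in the KO libraries. Their part in the Smpd3 level was not tested.

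Sost had 0.848, 0.829 and 0.986 CPM in KO, against 1.12, 1.18 and 1.24 CPM in WT. Every KO library was below every WT library, yet the gene did not pass: the log2 fold change was -0.42 (SE 0.29, 95% interval -1.04 to 0.21, FDR 0.376), on 107 counts in KO and 92 in WT. Groups that do not overlap were common, at 38.4% of all genes tested, and 5 of the 9 members had them. The lower scaled level of Sost rests on the scaling, since the raw counts were 33, 35 and 39 in KO and 33, 27 and 32 in WT.

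**Figure D3:**
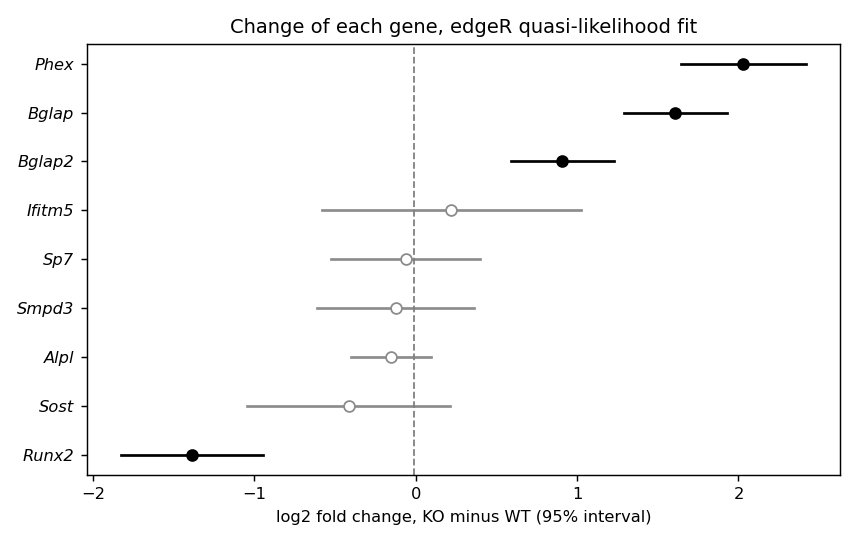
Log2 fold change (KO minus WT) of each gene with its 95% interval from the edgeR fit; filled black points passed an FDR of 0.05, open grey points did not, and the dashed line is the median of all genes tested, -0.01. Phex, Bglap and Bglap2 lie to the right of the line with intervals clear of it, Runx2 lies to the left, and the intervals of the other 5 genes cross it.

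To compare levels between genes, CPM was divided by the length of the longest annotated transcript. Bglap was highest, at 102 ± 2.79 CPM per kilobase in KO and 33.3 ± 7.59 in WT. Bglap2 followed at 17.1 ± 0.713 in KO and 9.05 ± 0.979 in WT, then Alpl at 6.26 ± 0.0420 in KO and 6.98 ± 0.625 in WT. Next came Sp7, at 1.33 ± 0.00631 CPM per kilobase in KO and 1.41 ± 0.470 in WT. These first 4 ranks were the same in both groups. Below them the order changed. Phex followed Sp7 in KO, at 1.04 ± 0.0953 CPM per kilobase, and was last in WT, at 0.253 ± 0.0252. Runx2 was last in KO, at 0.222 ± 0.00601, but above Sost, Smpd3 and Phex in WT, at 0.586 ± 0.0920. Ifitm5 had 0.951 ± 0.288 in KO and 0.826 ± 0.0925 in WT, Sost 0.425 ± 0.0303 in KO and 0.568 ± 0.0307 in WT, and Smpd3 0.333 ± 0.00659 in KO and 0.366 ± 0.0464 in WT. Among neighbours in the KO order, Phex and Ifitm5 had overlapping libraries. In the WT order Sp7 overlapped Ifitm5, Ifitm5 overlapped Runx2, Runx2 overlapped Sost, and Smpd3 overlapped Phex. A gene's longest transcript may not be the one used in this tissue, so the order between genes of close level is approximate.

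**Figure D4:**
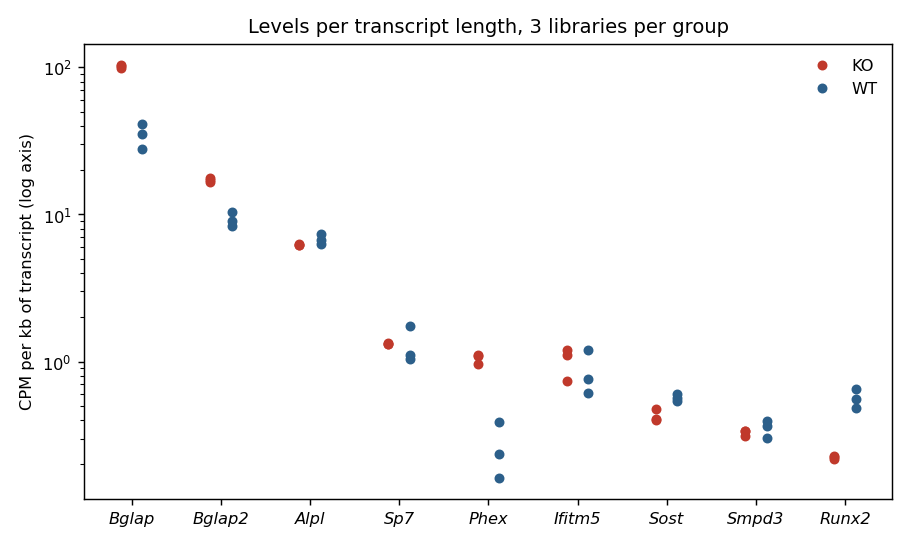
CPM per kilobase of the longest transcript on a log axis, 3 libraries per group, with genes ordered by their KO mean. Bglap, Bglap2, Alpl and Sp7 take the first 4 places in both groups, while the WT points of Phex, from 0.161 to 0.390, include the lowest point of all and overlap those of Smpd3 in WT, and the KO points of Runx2 lie below its WT points.

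The 4 calls held under every setting tried, among them the DESeq2 Wald test, which called 11.2% of all genes. The fit without KO 2, which called 7.35%, leaves KO with 1 summed sample, and the fit without WT 1 does so for WT: the spread then comes from the other group alone, and the lone sample is assumed to vary like it. With the 6 libraries as separate samples the log2 fold changes were -1.35 for Runx2, 1.56 for Bglap, 0.89 for Bglap2 and 2.03 for Phex (FDR 1.31e-05, 1.89e-08, 2.05e-05 and 2.67e-06), where 25% of all genes were called. The scaling matters more for the other genes. Without TMM factors, on total counts, the median gene was 0.54 higher in KO on the log2 scale, and the calls over all genes were 7348 higher and 386 lower, against 1339 and 1241 with TMM. On that scale Alpl was called higher (0.39, FDR 0.0227), although this is below the shift of the median gene. Sp7, Smpd3 and Sost had positive values there (0.48, 0.43 and 0.14) and did not pass. Whether nuclear transcripts rose or mitochondrial ones fell cannot be told apart.

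Genes around the 9 were read from 6 further lists, with 50 genes named and 46 tested. Of these, 4 were higher and 6 lower in KO, 21.7% called against 17.6% over all genes, with a median log2 fold change of 0.02. That share is near the background. On total counts without TMM factors, where the median gene was 0.54 higher, 22 of the 46 were called higher and none lower, so the lower calls in these lists hold only relative to the bulk of genes.

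Among 10 regulators of osteoblast differentiation none was higher and 2 were lower in KO. Twist1, a factor that restrains RUNX2 activity, had 2.03 ± 0.288 CPM in KO and 4.02 ± 0.458 CPM in WT (log2 fold change -0.99, SE 0.19, FDR 0.00278). Atf4 and Mef2c, the most abundant of the list, were at 27.6 and 21.8 CPM in KO and at 27.3 and 23.5 CPM in WT (log2 fold changes 0.02 and -0.11, FDR 0.947 and 0.568). Runx1 and Runx3, the relatives of Runx2, did not pass, with changes of -0.34 and 0.42 (FDR 0.368 and 0.407). They were picked for their kinship to Runx2 and not by the rule for named genes.

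In the list of mineralisation and phosphate handling, 1 of 8 tested genes was higher and 2 were lower. Slc20a2, a phosphate transporter, had 25.6 ± 2.53 CPM in KO and 17.0 ± 1.39 CPM in WT (log2 fold change 0.59, FDR 0.00364). Phospho1, a phosphatase that starts mineral formation in matrix vesicles, had 1.69 ± 0.777 CPM in KO and 3.75 ± 0.565 CPM in WT (-1.22, SE 0.29, FDR 0.0177). Ahsg, the serum inhibitor of mineralisation fetuin-A, was lower on only 20 counts in KO and 41 in WT (-1.62, FDR 0.0463), and it did not pass in the DESeq2 Wald test (FDR 0.198) or with KO 1, KO 2 or WT 1 left out (FDR 0.0613, 0.231 and 0.0629). The calcification inhibitor Mgp and the pyrophosphate exporter gene Ank did not pass, with changes of 0.30 and -0.30 (FDR 0.101 and 0.132). Fgf23, the phosphate hormone of osteocytes that rises when PHEX is missing, was at 2 counts in KO, against 2 in WT, and was not tested.

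Of 3 genes that process osteocalcin, Furin, the protease that trims its precursor, rose in KO (8.49 ± 1.36 CPM in KO and 5.20 ± 0.142 CPM in WT, log2 fold change 0.70, FDR 0.00547), a call lost without KO 2, where KO is 1 summed sample (0.54, FDR 0.140). Ggcx and Vkorc1, which serve its vitamin K-dependent carboxylation, did not pass (0.35 and -0.22, FDR 0.307 and 0.599). Among 7 genes of sclerostin and its WNT co-receptors 1 was higher and 1 lower. Lrp5, a WNT co-receptor that sclerostin blocks, had 19.4 ± 0.990 CPM in KO and 8.27 ± 0.885 CPM in WT (1.24, SE 0.12, FDR 1.26e-05). Its relative Lrp6 had 6.44 CPM in KO and 7.83 CPM in WT (-0.28, FDR 0.171), and Lrp4, which anchors sclerostin, 2.02 CPM in KO and 1.41 CPM in WT (FDR 0.632). Sostdc1, a paralog of Sost, had 0.950 ± 0.00346 CPM in KO and 1.82 ± 0.181 CPM in WT (-0.93, FDR 0.0216). That call was lost in the DESeq2 Wald test (-0.93, FDR 0.118). It was also lost without KO 2 (-0.93, FDR 0.129) or WT 1 (-0.82, FDR 0.0821), fits that leave 1 summed sample in a group, and the fold change moved little in all 3.

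Bglap3 was the only one of 7 other osteoblast and osteocyte genes to pass. Sparc (osteonectin) had 329.6 ± 14.7 CPM in KO and 397.6 ± 0.0552 CPM in WT (-0.27, FDR 0.194), and Pth1r, the parathyroid hormone receptor, 3.23 CPM in KO and 4.70 CPM in WT (-0.54, FDR 0.0775). Of the 11 tested paralogs of the 9 genes, none was higher and only Mme was lower. Mme, the peptidase neprilysin of the same family as PHEX, had 4.18 ± 0.756 CPM in KO and 6.12 ± 0.0987 CPM in WT (-0.54, FDR 0.0369). It did not pass in the DESeq2 Wald test (-0.54, FDR 0.148), nor when KO 1, KO 2, WT 1 or WT 3 was left out (FDR 0.0659, 0.367, 0.0817 and 0.0694). Ifitm2 and Ifitm3, interferon-induced relatives of Ifitm5 that many cell types express, had changes of 0.06 and -0.31 (FDR 0.833 and 0.217).

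**Figure D5:**
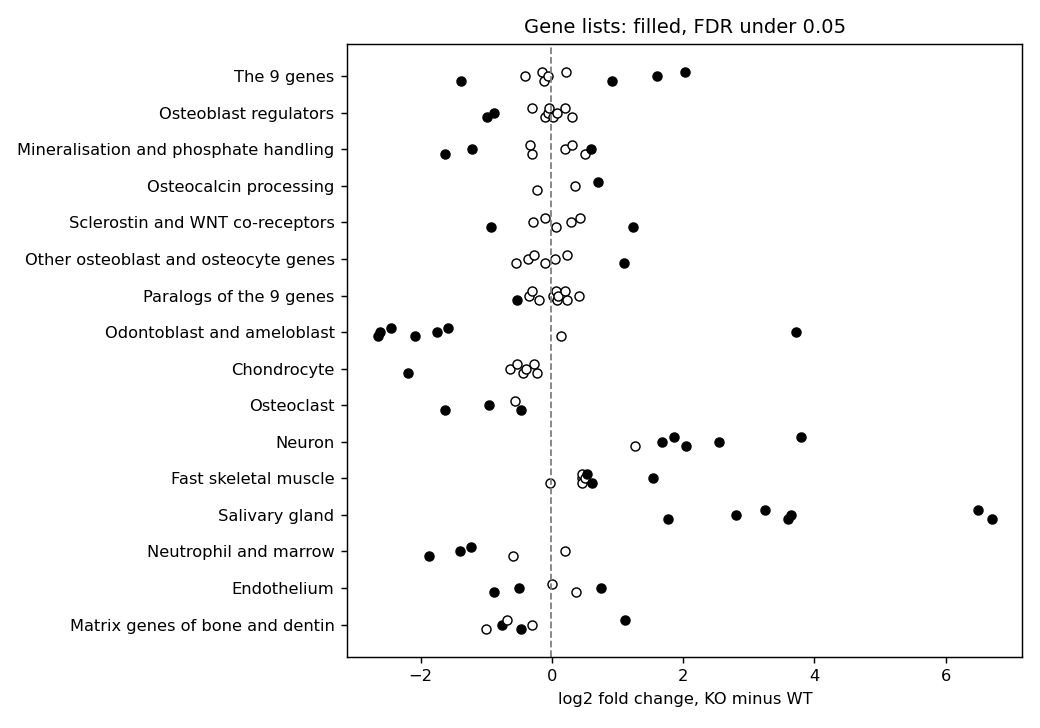
Log2 fold change (KO minus WT) of every tested gene in each list, with filled points for FDR under 0.05 and a dashed line at the median of all genes tested; vertical offsets within a row only separate the points, and the neuronal gene Elavl4, absent from WT, is left out. Genes of the bone lists in the upper rows lie mostly within 1 log2 unit of the line, while the salivary and neuronal genes lie to the right and most odontoblast and ameloblast genes to the left.

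Markers of other tissues also differed between the KO and WT libraries. An effect of the genotype and a difference in the tissue taken cannot be told apart in this design. Of 8 odontoblast and ameloblast genes, 1 was higher and 6 were lower, and their summed level was 537 to 559 CPM in KO and 1526 to 1629 CPM in WT. The enamel genes Amelx and Ambn had 262 ± 13.8 and 144 ± 0.439 CPM in KO, against 883 ± 2.69 and 614 ± 61.1 CPM in WT. The higher gene was Dspp, the dentin gene of odontoblasts, named after its values were seen, with 118 ± 3.09 CPM in KO and 8.97 ± 0.0373 CPM in WT (log2 fold change 3.72, FDR 1.01e-09). Odontoblasts also make osteocalcin and PHEX, and tooth cells express Runx2. The part of tooth tissue in the changes of Bglap, Bglap2, Phex and Runx2 was not tested.

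The matrix genes that mark bone and dentin were present in all libraries, summed at 659 to 735 CPM in KO and 458 to 513 CPM in WT, with 1 of 6 higher and 2 lower. Col1a1 rose (528 ± 48.0 CPM in KO and 245 ± 26.6 CPM in WT) while Col1a2 fell (148 ± 5.62 CPM in KO and 205 ± 9.90 CPM in WT). Col1a1 was the only gene of the 6 with a higher mean in KO, so the higher sum rests on it. The median log2 fold change of the list was -0.58. Cartilage was scarce by its markers: 9 chondrocyte genes summed to 11.2 to 13.5 CPM in KO and 15.0 to 18.1 CPM in WT, with 1 of 7 tested lower, and Col9a1 and Ihh had at most 8 counts in a group. Osteoclast genes, the counterpart of the osteoblast genes in bone turnover, summed to 12.1 to 14.0 CPM in KO and 21.9 to 25.1 CPM in WT, with 3 of 4 tested lower. Ocstamp was at 4 counts in KO, against none in WT. Oscar was at 22 counts in KO, against 2 in WT, and Dcstamp at 2 counts in KO, against 8 in WT. These low-count osteoclast genes were not tested.

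Neuronal genes summed to 32.6 to 35.6 CPM in KO and 6.71 to 8.07 CPM in WT, and Elavl4 was at 154 counts in KO, against none in WT. All 7 salivary genes rose, at 498 to 525 CPM summed in KO and 39.1 to 42.6 CPM in WT. Fast muscle genes had 3 of 8 higher, and summed to 5291 to 6100 CPM in KO and 3602 to 4900 CPM in WT. Neutrophil and marrow genes, which include cells that also express Alpl, summed to 3.93 to 5.11 CPM in KO and 9.94 to 13.2 CPM in WT, with 3 of 5 tested lower and Elane without a count in WT. Endothelial genes, another source of Alpl, had 1 higher and 2 lower of 5, and summed to 190 to 204 CPM in KO and 168 to 171 CPM in WT. The part of these tissues in the values of the 9 genes was not tested.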

How the data were processed

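The deposited table holds raw counts for 22032 genes by symbol, with no normalization by the authors and 1 column for each of 6 libraries. The submitters' processing notes name mm39 as the build, with StringTie 2.1.5 and HISAT2 2.1.0. No source states the annotation, the strand setting or the rule for shared reads. RNA was extracted with TRIzol and mRNA isolated with a bead kit, per the labels' protocols. Groups and replicate numbers came from the sample titles. A read pair seems to give 2 counts, since 4.69 to 5.06 times as many genes had 2 counts as had 1. Libraries of a group were therefore compared against counting noise with 2 counts per pair, over nuclear genes with at least 20 summed counts, and pairs with a median ratio of at most 1.1 were summed.

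Counts were tested with edgeR 4.0.16 in R 4.3.3 (filterByExpr with a minimum count of 10, TMM, robust quasi-likelihood fit, group as the term), with Benjamini-Hochberg FDR over all 14632 tested genes. All FDR values are from this fit unless another is named. Log2 fold changes are KO minus WT, and the SE is the size of the change over the root of the F statistic. The script was tested on simulated data. Transcript lengths came from GENCODE M21 (GRCm38), which is not the build of the counts, and all 9 symbols matched. Alternatives used DESeq2 1.42.0 and limma 3.58.1. The members and gene lists were chosen with earlier results of these data known. Genes were named by rule: the 9 members and Igf2bp2, list genes that passed and the 2 most abundant that did not, and abundant or absent members of marker lists, with Dspp, Runx1, Runx3, Oscar and Dcstamp outside it. Not every gene the rule takes is reported here, and Alpi, Matn1, Matn3, Snorc and Calcr were not analysed here. No counting interval is given: the libraries carry no molecular identifiers, and the tests rest on the spread between samples.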

Additional observations from a re-analysis of the deposited data

How the results depend on the processing

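The 9 genes gave 4 calls, 3 higher and 1 lower, in each of the 16 other settings: 6 separate libraries, the same with the replicate number as a block, 2 other scalings, nuclear genes only, no filter, a stricter filter (which left 7 of the 9 tested), the DESeq2 Wald test, limma-voom, leaving out each library, and total counts without TMM factors, which was chosen after seeing the data and added another call. The log2 fold changes ranged from -1.46 to -0.84 for Runx2, 1.41 to 2.17 for Bglap, 0.83 to 1.47 for Bglap2 and 1.76 to 2.59 for Phex. That added call was Alpl, reversed to 0.39. Over all genes the count of 2580 became 1634 with DESeq2, 7734 on total counts and 1149 to 2434 without 1 library, lowest without KO 2. The 10 calls of the bone lists became 22 on total counts, 15 with 6 separate libraries, 7 with the DESeq2 Wald test, 8 with the stricter filter and 6 to 10 without 1 library, lowest without KO 2. Without KO 2 or WT 1 that group is 1 summed sample. The cause was not tested. Same-numbered libraries did not deviate together (correlations -0.03, -0.09 and 0.03, and 1 of 6 libraries correlated best with its own number). With the replicate block, 2941 genes were called against 3452 without it over 6 libraries, with 4 of the 9 genes in both and 11 of the bone lists against 15. Bglap and Bglap2 summed stayed at 1.31 to 1.53 without 1 library, and at 1.44 with the block. Low counts limit Ifitm5 and Sost, which had 93 and 107 counts in KO and 50 and 92 in WT.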

Other observations

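Counts of the 9 genes were close in KO 1 and KO 3. The ratio of observed to counting variance, which averages 1 where counting noise acts alone, was 0.000398 to 0.205 over the 9 genes in that pair, with 1785 and 1789 counts of Bglap, 57 and 57 of Runx2 and 272 and 270 of Phex. In WT 2 and WT 3 the ratios were 0.0160 to 2.53, apart from the 7.52 of Phex. No explanation of this was tested.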
